A study of Hippophae rhamnoides with 3 samples.

Results

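Plants defend themselves with receptors inside and at the surface of the cell, which detect pathogens, and with pathogenesis-related (PR) proteins, which act on the pathogen directly. Most of the intracellular receptors carry a nucleotide-binding site and leucine-rich repeats (NBS-LRR), with a Toll/interleukin-1 receptor (TIR) or a coiled-coil (CC) domain in front. PR proteins such as chitinases, β-1,3-glucanases, thaumatin-like proteins and PR-1 are secreted to the cell wall or stored in the vacuole. Several of them also accumulate in leaves at low temperature, and in winter rye secreted forms of them bind ice.

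The genes described here were found by 15 keywords for these proteins in the best-hit descriptions of the deposited gene tables, without any gene named as a kinase or for transcription. They numbered 30 among the 7713 genes of the 3 tables, and no keyword match had to be dropped. Immune receptors made up 10 of them. Secreted proteins made up 14, namely 7 β-1,3-glucanases, 3 chitinases, 1 thaumatin-like protein, and a PR-1, a PR-4 and a PR-6 protein. The other 6 were 2 cytosolic proteins (a PR-10 allergen and a major latex protein), 2 membrane proteins related to NDR1 and HIN1, a WRKY protein and a disease resistance response protein. No defensin or osmotin was found. Gene names rest on similarity to proteins of other plants, 8 of them from Ricinus communis, and 24 of the 30 had an E-value of at most 1e-20.

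Expression was measured by DeepSAGE, which counts 21-base tags, in leaves of seabuckthorn (Hippophae rhamnoides) plantlets aged 30 days. The CON library came from plantlets at 28 °C, the CS library from cold stress at 4 °C and the FS library from freeze stress at -10 °C, the stresses lasting 6 hr. There was 1 library per condition, so no difference had a replicate check, and how many plantlets gave each library is not stated in the sources used. Counts divided by TPM implied totals of 11566408, 12010094 and 11908593 clean tags for the CON, CS and FS libraries. A level is given as TPM, the tags of a gene in each 1000000 clean tags. In a bulk leaf sample, fewer cells of a type and less RNA in each cell cannot be told apart. Rose and fell are used of a gene that the deposited table of the comparison lists, that is, one past the authors' limits of a 2-fold ratio and a false discovery rate. A gene listed in 1 table has counts in 2 libraries alone, which held for 14 of the 30 genes, while 16 had counts in all 3 libraries. Every gene of the 30 was listed somewhere by construction, and its direction was left to the data. Intervals are exact (Clopper-Pearson) 95% intervals of a ratio of 2 counts. They cover counting error only, as each condition had 1 library. Amplified tags carry no molecular identifier and are not independent, so the intervals can be too narrow even for that error. A count of 0 was replaced by 3 tags, the limit for a true 0. Tags seen fewer than 2 times had been discarded, so a 0 can hide single tags, which this limit leaves out. Such a fold is marked as at least the value under this limit. It leaves out the counting error of the other library. Its lower limit with that error, also for a true 0, follows it.

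The leaf label was checked by best hits named for light-harvesting proteins and the small chain of Rubisco. The tables held 7 such genes. Those with counts in all libraries, 5 in number and none at 0, summed to 2586 TPM in CON, against 842 TPM in CS and 2223 TPM in FS. Of the 29912 tags of this sum in CON, 21499 came from Unigene113799_All. The sum leaves out Unigene48572_All, with 22282 tags in CON, 8634 in CS and no FS count. It also leaves out Unigene116095_All, with 412 tags in CS, 840 in FS and no CON count. In CON vs CS 4 of the 5 listed leaf genes fell and 1 rose, where 47.0% of all listed genes fell. In CS vs FS 4 of 6 rose and 2 fell, where 55.3% of all listed genes rose. The part of these changes in the results below was not tested. Among all 7713 genes, 0 had a best hit in a fungal, oomycete or bacterial genus of the list searched, and tags without a match in the reference were not searched.

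The tags below identify the genes on which the results turn. Capitals mark the CATG site at which NlaIII cut the cDNA, and the 17 bases in lower case are those that follow it in the transcript. Each of these tags matched its gene alone, in the sense direction.
Unigene74953_All, class I chitinase, second site from the 3′ end: CATGactatgttttgtgtatc
Unigene43390_All, class I chitinase: CATGtaatatgcaaaaattgt
Unigene62371_All, class V chitinase: CATGcaataagacaataaggg
Unigene35675_All, β-1,3-glucanase that rose: CATGattcaggcgtcgtcttt
Unigene115439_All, β-1,3-glucanase that fell: CATGggaggaactactggaat
Unigene26763_All, PR-6 type protein: CATGgatatgtttaatatatg
Unigene5182_All, PR-1: CATGtgttggtggggtgtgtg
Unigene52892_All, TIR-NBS-LRR receptor: CATGagtaatcactttaatta
Unigene21725_All, verticillium wilt receptor: CATGtcattcctcaccaagtg
Unigene5729_All, major latex protein: CATGactaaggtggttaaaga

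In CON vs CS, 22 of the 30 genes were listed (50.2% of all 7713 genes were). Of these 17 rose and 5 fell, 77.3% up against 53.0% up and 47.0% down over all listed genes. Their median log2 ratio was 2.55, and that of all listed genes was 1.08. A rise of at least 4-fold was found in 14 of the 22, against 25.5% of all listed genes. In CON vs FS 13 were listed (52.5% of all genes), 8 up and 5 down. That is 61.5% up, near the 56.2% up and 43.8% down of all listed genes, and their median was 1.33 against 1.18. In CS vs FS 12 were listed (51.8% of all genes), of which 2 rose and 10 fell. The share up was 16.7%, against 55.3% up and 44.7% down over all listed genes, and the median was -1.83 against 1.12. Here 5 of the 12 fell at least 4-fold, against 12.1% of all listed genes. The comparisons share libraries, so a high count in CS enters the rises from CON and the falls to FS alike. Among the 16 genes with counts in all libraries, 10 were highest in CS (34.1% of the 3960 such genes overall) and 11 were lowest in CON (40.1%).

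**Figure D1:**
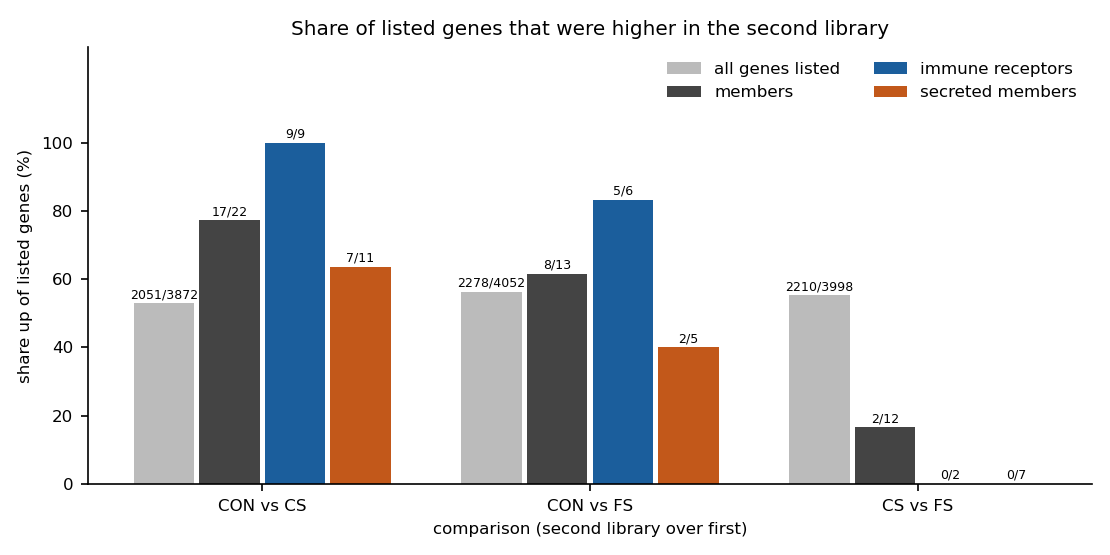
Share of listed genes with a higher level in the second library of each comparison, in percent, for all listed genes (light grey), the 30 genes (dark grey), the immune receptors (blue) and the secreted proteins (orange), with counts above the bars. In CON vs CS 9 of 9 listed receptors were up, and in CS vs FS 0 of 7 listed secreted proteins were.

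Receptors are described first. All 9 receptors listed for CON vs CS rose, with a median log2 ratio of 2.70, and 7 of them at least 4-fold. Over all listed genes 53.0% rose, and 25.5% rose at least 4-fold. With E-values of at most 1e-20, 6 receptors were up and 0 down, where 50.2% of all listed genes within that limit were up. The summed level of the 6 receptors with counts in all libraries was 13.9 TPM in CON, against 71.0 TPM in CS and 49.6 TPM in FS. The levels of single receptors were low, so their intervals are wide. Unigene24579_All, whose best hit is a disease resistance protein of Brassica rapa, was the receptor not listed for CON vs CS. It had 138 tags in CON and 62 in FS and is not in the sum. The 6 summed receptors were all listed as rises in CON vs CS, so a sum lower in CON than in CS follows from that listing. All but Unigene33273_All were also listed as rises in CON vs FS. The summed receptors had 161 tags in CON and 591 in FS.

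Unigene52892_All, a TIR-NBS-LRR receptor by its best hit in Populus trichocarpa, had 0 tags in CON, against 101 in CS and 55 in FS. It was at least 32.4-fold higher in CS than in CON (lower limit 25.9) and at least 17.8-fold higher in FS (lower limit 14.0). It was thus detected in the stressed leaves alone, though the 3 tags set for a count of 0 are a level of 0.259 TPM in CON. Unigene44679_All, the other TIR-NBS-LRR receptor, went from 0 tags in CON to 18 in CS, at least 5.78-fold (lower limit 4.23). Its hit in Arabidopsis thaliana was the weakest of all 30, with an E-value of 6.0e-06.

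Unigene21725_All, with a verticillium wilt disease resistance protein of tomato as best hit, was the only gene of the 30 listed in all 3 tables. In tomato, receptors of this name sit at the cell surface and detect a fungal wilt pathogen. It had 33 tags in CON, against 277 in CS and 135 in FS. The rise to CS was 8.08-fold (95% interval 5.62 to 12.0) and that to FS 3.97-fold (interval 2.70 to 6.00). From CS to FS it fell 2.03-fold (interval 1.65 to 2.52). The order CS over FS over CON was therefore separated at each step by more than the counting error that these intervals cover.

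The NBS-LRR receptors named RGH1 and RGH2, after resistance gene homologues of cassava (Manihot esculenta), rose as well. Unigene33273_All (RGH1) had 7, 84 and 22 tags in CON, CS and FS, a log2 ratio of 3.53 in CON vs CS (interval 2.42 to 4.89) and of -1.92 in CS vs FS (interval -2.67 to -1.23). Unigene43394_All (RGH2) had 3, 33 and 23 tags, a log2 ratio of 3.41 in CON vs CS (interval 1.73 to 5.75) and of 2.90 in CON vs FS (interval 1.17 to 5.28). Its level in CS and FS did not differ beyond counting error, with a log2 ratio of -0.51 (interval -1.34 to 0.30). Unigene56121_All has the same best hit, RGH2, and rose from 4 to 27 tags in CON vs CS, a log2 ratio of 2.70 (interval 1.18 to 4.68), with an E-value of 1.1e-15. As both match 1 protein, they may be copies or pieces of 1 gene, and the counting could divide tags between them.

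The remaining receptors changed less. Unigene92276_All, with the CC-NBS-LRR protein RGA2 as best hit, had 46 tags in CON, against 166 in CS and 147 in FS, 3.48-fold (interval 2.49 to 4.93) and 3.10-fold (interval 2.22 to 4.42) above CON. Unigene3054_All, a CC-NBS-LRR receptor by a hit with an E-value of 4.0e-18, had 72, 192 and 209 tags, 2.57-fold (interval 1.95 to 3.42) and 2.82-fold (interval 2.15 to 3.74) above CON. In these genes cold and freeze stress did not differ beyond counting error, with log2 ratios of FS over CS of -0.16 (interval -0.49 to 0.17) and 0.13 (interval -0.15 to 0.42). Unigene22939_All, with RPP13 as best hit, which in Arabidopsis thaliana recognises a downy mildew, rose from 8 to 43 tags in CON vs CS, 5.18-fold. Against the others, Unigene24579_All fell 2.29-fold, from 138 tags in CON to 62 in FS (log2 ratio -1.20, interval -1.65 to -0.75). Its E-value was 1.9e-15. Without the 4 receptors whose E-values were above 1e-20, which are Unigene44679_All, Unigene56121_All, Unigene3054_All and this gene, 4 receptors were up and 0 down in CON vs FS, in place of 5 and 1. Its listed tag at the third site from the 3′ end, 40 tags in CON and 5 in FS, gave -3.04, more than the gene as a whole.

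**Figure D2:**
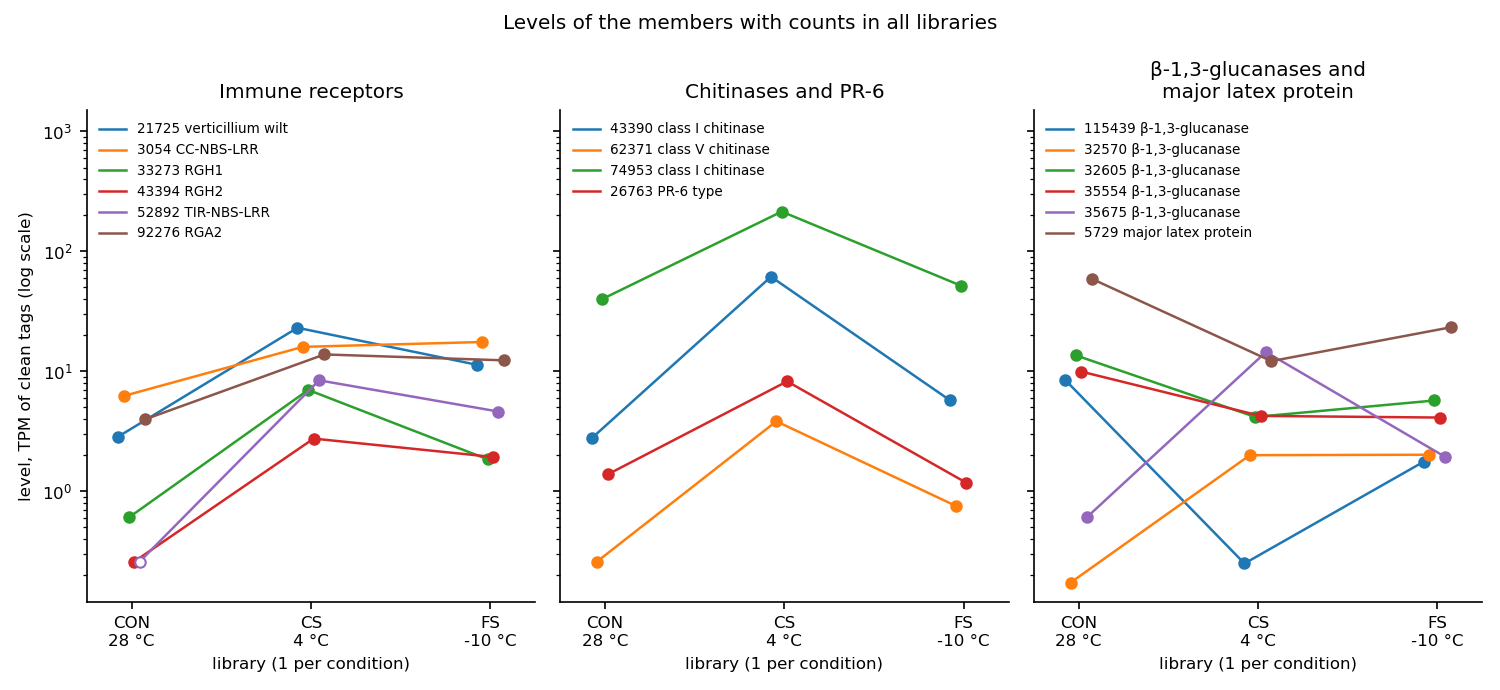
Level in TPM of clean tags (log axis) in the CON, CS and FS libraries for the 16 genes with counts in all of them, 1 line per gene, labelled by Unigene number and best hit. The open circle is the limit of 3 tags for a count of 0, and points are shifted sideways for legibility. All 6 receptors shown, each listed as a rise in CON vs CS, were lowest in CON, and the chitinases and the PR-6 gene peaked in CS.

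Among the secreted proteins the 3 chitinases, which cut the chitin of fungal walls, moved together. All 3 rose in CON vs CS, all 3 fell in CS vs FS, and none was listed in CON vs FS. Over all listed genes 53.0% rose in CON vs CS and 44.7% fell in CS vs FS. In CON vs FS 52.5% of all genes were listed. Their summed level was 43.1 TPM in CON, against 280 TPM in CS and 58.2 TPM in FS. Unigene74953_All, a class I chitinase, had the highest level of the 30 genes in CS and in FS, with 464 tags in CON, against 2577 in CS and 616 in FS. It rose 5.35-fold (interval 4.84 to 5.92) and fell again 4.15-fold (interval 3.80 to 4.54). Its level in FS was 1.29-fold that in CON (interval 1.14 to 1.46).

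Unigene43390_All, a class I chitinase by its best hit in Ricinus communis, had 32 tags in CON, against 738 in CS and 68 in FS. It rose 22.2-fold (interval 15.6 to 32.7) from CON to CS and fell 10.8-fold (interval 8.39 to 14.0) from CS to FS. Its listed tag, with 14, 112 and 15 tags, carried a minor part of the gene's count in CS and gave a log2 ratio of 2.95 in place of 4.47 in CON vs CS, and of -2.89 in place of -3.43 in CS vs FS. The direction was thus the same on the tag printed above and on the whole gene, and the size differed. Unigene62371_All, a class V chitinase, had 3, 46 and 9 tags. It was 14.8-fold higher in CS than in CON, with an interval of 4.75 to 74.2 because of the low count in CON.

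The β-1,3-glucanases, which cut glucans of fungal walls and also callose, did not move as a group. Of the 6 listed in CON vs CS, 2 rose and 4 fell, against 53.0% up and 47.0% down over all listed genes. The summed level of the 5 with counts in all libraries was 32.8 TPM in CON, against 25.1 TPM in CS and 15.5 TPM in FS. This sum leaves out Unigene61556_All, with 23.9 TPM in CS, 11.9 TPM in FS and no CON count. It also leaves out Unigene63035_All, with 1.12 TPM in CON, 0 in CS and no FS count. The sum is thus not the level of the whole class. Unigene35675_All rose like the chitinases, from 7 tags in CON to 174 in CS, and fell to 23 in FS. Its rise was 23.9-fold (interval 11.4 to 60.4), and the fall to FS was 7.50-fold (interval 4.84 to 12.1). Unigene32570_All, with a glucanase of Ziziphus jujuba as best hit, had 2 tags in CON and 24 in both CS and FS, a log2 ratio of 3.53 (interval 1.52 to 6.66) and 3.54 (interval 1.53 to 6.67). It was the only glucanase listed as up in both CON vs CS and CON vs FS. Unigene35675_All, not listed for CON vs FS, was 3.19-fold above CON in FS (interval 1.33 to 8.81).

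The other glucanases went down. Unigene115439_All had 98 tags in CON, against 3 in CS and 21 in FS, 33.9-fold less in CS than in CON (log2 ratio -5.08, interval -7.39 to -3.49) and 4.80-fold less in FS (log2 ratio -2.26, interval -3.02 to -1.57). Unigene63035_All, which has the same best hit and so may belong to the same gene or a near copy, went from 13 tags in CON to 0 in CS, at least 4.50-fold lower (lower limit 3.16). The order of the libraries in Unigene115439_All was the opposite of that in the chitinases, lowest in CS. Though not listed for CS vs FS, Unigene115439_All was 7.06-fold higher in FS than in CS (interval 2.11 to 37.0). Unigene32605_All had 157, 50 and 68 tags, 3.26-fold less in CS than in CON and 2.38-fold less in FS. Its listed tag alone gave a log2 ratio of -2.97 in CON vs CS, where the gene gave -1.71. Unigene35554_All had 115, 51 and 49 tags, 2.34-fold and 2.42-fold less than in CON, and CS and FS did not differ beyond counting error. Unigene61556_All was listed in CS vs FS alone and fell there from 287 tags to 142 (interval of the fold 1.63 to 2.47).

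Of the PR proteins proper, Unigene26763_All, a PR-6 type protein annotated with endopeptidase inhibitor activity, had 16 tags in CON, against 99 in CS and 14 in FS. It rose 5.96-fold in CS (interval 3.49 to 10.8) and fell 7.01-fold from there to FS (interval 3.99 to 13.3). FS and CON did not differ beyond counting error, with a log2 ratio of -0.23 (interval -1.38 to 0.89). Unigene5182_All, a PR-1 protein and as such of the family most used as a marker of defence by salicylic acid, went from 0 tags in CON to 23 in CS, at least 7.38-fold (lower limit 5.54). Unigene43904_All, PR-4A, of a family that binds chitin, had 111 tags in CS against 42 in FS and so fell 2.62-fold. With the chitinases, the PR-6 gene and the glucanases Unigene35675_All and Unigene61556_All, it made up the 7 secreted genes listed for CS vs FS. All 7 fell, against 44.7% of all listed genes. A limit of 1e-20 on the E-value left 5 of the 7. Unigene26763_All (1.1e-18) and Unigene61556_All (3.2e-10) were above that limit. Unigene36749_All, the thaumatin-like protein (PR-5 family, antifungal in other plants), rose from 50 tags in CON to 126 in FS, 2.45-fold (interval 1.75 to 3.47). It was the secreted gene besides Unigene32570_All that rose in CON vs FS. There 2 secreted genes rose and 3 fell, against 56.2% up over all listed genes. With TMM factors, which rescale the libraries to each other, the thaumatin-like gene had a log2 ratio of 0.96. That was under the 2-fold limit and left 1 secreted gene up. A minimum of 30 tags in the higher library also left 1, as Unigene32570_All had fewer.

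**Figure D3:**
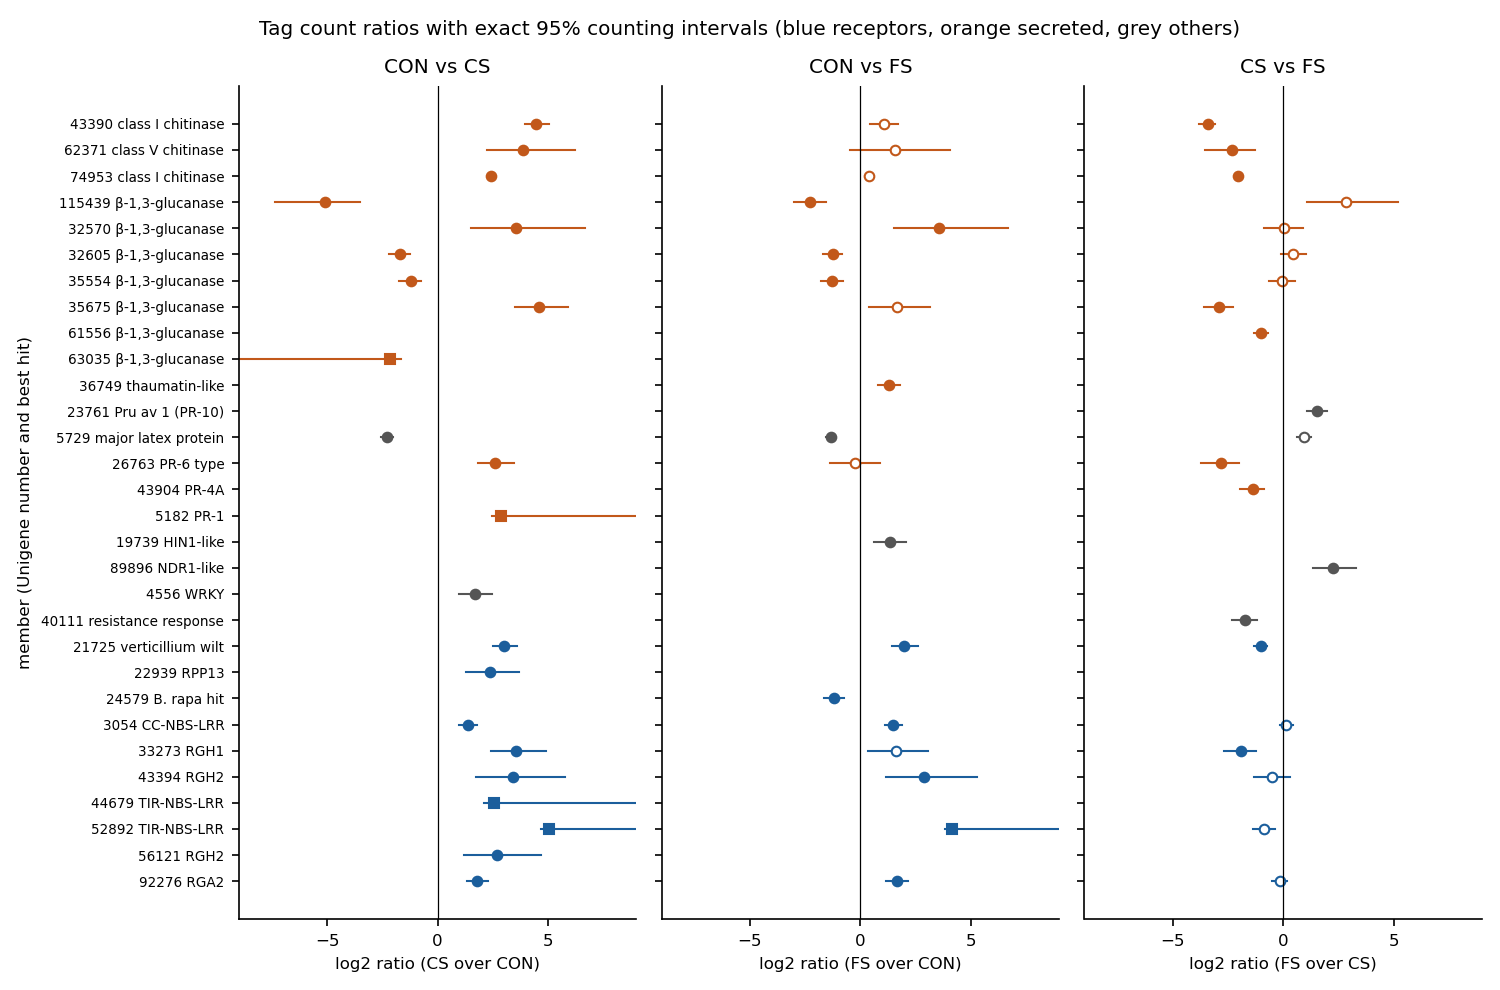
Log2 ratio of tag counts in the second over the first library for each of the 30 genes, with exact 95% counting intervals, for receptors (blue), secreted proteins (orange) and the others (grey). Filled symbols are genes listed for that comparison, open symbols genes not listed there whose counts came from the other tables, and squares bounds against the limit of 3 tags. In CS vs FS every filled orange point lies left of 0, and the grey genes Unigene23761_All and Unigene89896_All lie right of it. The open orange point of Unigene115439_All, at 2.82, also lies right of 0.

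The 6 genes of neither class had no common direction. Unigene5729_All, a major latex protein, of a family of cytosolic proteins related in fold to PR-10, had 681 tags in CON, against 146 in CS and 277 in FS. It fell in both stresses, with log2 ratios of -2.28 (interval -2.54 to -2.02) and -1.34 (interval -1.55 to -1.14). Its level in CS was below that in FS by more than the counting error that the interval covers. Unigene23761_All, a PR-10 protein like the cherry allergen Pru av 1, rose between the stresses, with 60 tags in CS against 170 in FS, 2.86-fold (interval 2.12 to 3.90). Unigene89896_All, a homologue of NDR1, a membrane protein that several CC-NBS-LRR receptors of Arabidopsis thaliana need, rose from 12 to 57 tags in the same comparison, 4.79-fold (interval 2.54 to 9.81). These are the 2 genes of the 30 that were higher in FS than in CS past the limits, and neither was placed with the receptors or the secreted proteins. The place of the NDR1 homologue was open: counted with the receptors, it would make them 1 up and 2 down in CS vs FS in place of 0 and 2. Unigene19739_All, related to HIN1, a tobacco gene induced by the bacterial protein harpin, rose from 24 tags in CON to 62 in FS, 2.51-fold (interval 1.54 to 4.20). Unigene4556_All, called a WRKY disease resistance protein in apple, rose from 21 tags in CON to 70 in CS, 3.21-fold (interval 1.95 to 5.51). Unigene40111_All, a disease resistance response protein, had 125 tags in CS against 37 in FS and so fell 3.35-fold. Its sense tag was counted 74 times in CON, a value the gene tables used here do not give.

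The annotation deposited with the genes, which the keywords did not use, gave a biological process for 19 of the 30. The authors assigned such terms with BLAST2GO. Terms and gene names both rest on sequence similarity, so they are not independent. All 7 β-1,3-glucanases carried beta-glucosidase activity. Response to stress was given for 5 genes and defense response for 4, among them Unigene52892_All and the thaumatin-like gene. Programmed cell death was given for the receptors Unigene56121_All and Unigene92276_All. In Unigene32605_All, Unigene35554_All and Unigene35675_All the cell wall was given as a site, and of these glucanases the first pair fell and the last rose in CON vs CS.

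The deposited tag tables resolve the gene values into single tags. For 23 of the 30 genes at least 1 sense tag was listed, 25 sense tags in all, of which 21 lay at the site nearest the 3′ end. In the tables in which gene and sense tag were both listed, tag and gene moved the same way in 40 of 40 cases, though a gene's value is the sum of its sense tags and so holds the tag itself. Antisense tags numbered 7, from 4 genes. The chitinase Unigene74953_All alone had 3 listed sense tags and 4 listed antisense tags, and all 7 rose in CON vs CS, while 3 sense and 3 antisense tags were listed for CS vs FS and fell. Its largest antisense tag was counted 12 times in CON, 177 times in CS and 59 times in FS.

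In the thaumatin-like gene Unigene36749_All the antisense tag was the larger. Its sense and antisense tags are shown because they lie on opposite strands of the same gene.
Unigene36749_All, sense: CATGggaacattgaatccatc
Unigene36749_All, antisense: CATGgaatttggtcccacatc
The antisense tag had 404 tags in CON, against 384 in CS and 1573 in FS, 8.08 times the sense count in CON and 12.5 times in FS. CON and CS did not differ beyond counting error, with a log2 ratio of -0.13 (interval -0.33 to 0.08), and the tag rose in FS, with a log2 ratio of 1.92 over CON (interval 1.76 to 2.08). Which strand of the reference is the transcribed one was not tested.

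**Figure D4:**
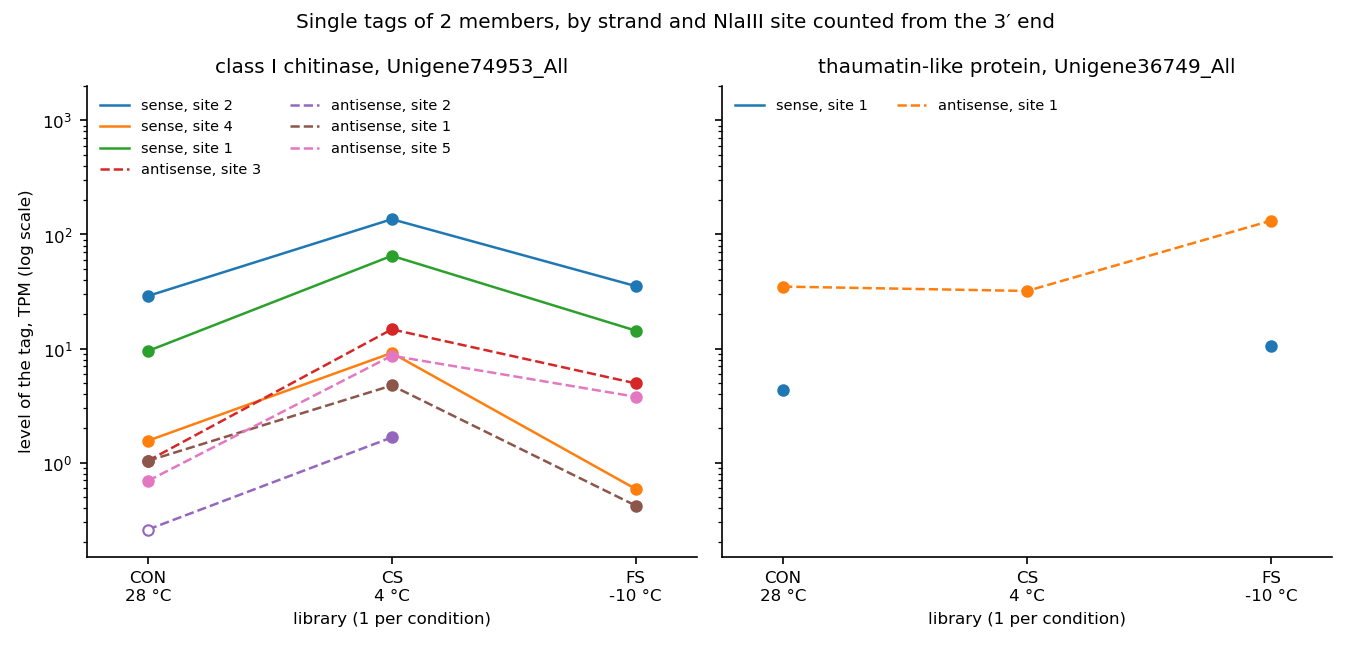
Level of single tags in TPM (log axis) in the 3 libraries for the chitinase Unigene74953_All (left) and the thaumatin-like gene Unigene36749_All (right), sense tags as solid and antisense tags as dashed lines, with the cutting site counted from the 3′ end. The open circle is the limit of 3 tags for a count of 0, and a library without a listed value has no point. The chitinase tags of both strands peak in CS, and the antisense tag of the thaumatin-like gene, from 34.9 TPM in CON to 132 TPM in FS, lies above its sense tag.

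Other genes of immune signalling were searched by a list of names, and 6 were in the tables. The list was chosen with earlier results of these data known. In CON vs CS 4 of the 6 were listed and all 4 rose, with a median log2 ratio of 1.52, where 50.2% of all genes were listed and 53.0% of those were up. In CON vs FS all 6 were listed, 5 up and 1 down (52.5% of all genes listed, 56.2% of those up), and in CS vs FS none was. Unigene21647_All, a homologue of EDS1, the lipase-like protein through which TIR-NBS-LRR receptors signal, had 26 tags in CON, against 71 in CS and 85 in FS. Unigene19192_All, a homologue of its partner PAD4, had 42, 136 and 154 tags. Both rose in both stresses, and neither was listed for CS vs FS. Unigene44366_All, of the MLO membrane proteins that powdery mildew fungi need to enter barley, had 10, 42 and 62 tags and rose in both as well. Unigene4245_All, a homologue of NPR1, the receptor and co-activator of salicylic acid responses, was the gene that fell, from 157 tags in CON to 72 in FS.

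A list of further PR families gave 12 genes, all of them peroxidases, germin-like proteins or a proteinase inhibitor. In CON vs CS 3 rose and 4 fell of 7 listed, where 53.0% of all listed genes were up. In CON vs FS 5 of 5 listed rose (56.2% of all listed genes), and in CS vs FS 7 rose and 1 fell of 8 listed (55.3% up over all listed genes), while the 7 secreted genes described above fell there. Unigene115968_All, a germin-like protein, was the most abundant, with 20094 tags in CON, against 2571 in CS and 14346 in FS, and so had its lowest value in the library in which the chitinases had their highest. Unigene40588_All, a peroxidase, had 483, 880 and 2337 tags.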

How the data were processed

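The authors trimmed reads to 21-base tags, discarded tags seen fewer than 2 times and mapped the others to reference gene sequences, allowing 1 mismatch. Bowtie 0.12.3 is named in the submitters' processing notes. In the deposited gene tables a count is the number of clean tags that match 1 gene in sense, and in the tag tables that of a single tag. The authors scaled each count to 1000000 clean tags of its library, which is the TPM. Only genes and tags past the authors' limits were listed. The columns of log2 ratios, P-values and FDR, the authors' own comparisons, were not used.

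Totals of clean tags were recomputed from counts and TPM (11566408 in CON, 12010094 in CS, 11908593 in FS), which returned every TPM within 0.00922. Ratios, exact intervals and counts by direction were computed from counts. The intervals and the signs of ratios were checked on simulated counts. These counts were independent, as the intervals assume, so the check does not cover tags that are not independent. No p-value was computed, as each condition had 1 library. Members and lists were chosen with earlier results of these data known. All 30 genes could be named, and those with counts in 3 libraries or with the largest changes of a class and comparison were given in full. The NDR1-like gene was placed with HIN1 after its description was read. Python 3.11.15, scipy 1.17.1, pandas 2.3.3 and, for TMM factors, edgeR 4.0.16 were used.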

Additional observations from a re-analysis of the deposited data

How the results depend on the processing

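The counts by direction were recomputed with a 4-fold limit, for genes reaching 30 tags in either library, without genes at 0 tags, with E-values of at most 1e-20 and with TMM factors over the 3960 genes with counts in all libraries. The 4-fold limit moved them most. It left 14 genes up and 3 down in CON vs CS, 3 up and 1 down in CON vs FS, and 1 up and 5 down in CS vs FS, because fewer genes pass it. Of the genes left in CON vs CS 82.4% were up, against 64.4% of all listed genes past 4-fold. In CON vs FS these shares were 75.0% and 75.2%, and in CS vs FS 16.7% and 64.4%. No other alternative moved a count over all 30 genes by more than 1.5 times. Among class counts, secreted genes up in CON vs FS went from 2 to 1 with the 30-tag minimum and with TMM factors, and receptors down in CON vs FS from 1 to 0 with the E-value limit. That limit also took receptors up in CON vs CS from 9 to 6 and secreted genes down in CS vs FS from 7 to 5. TMM factors shifted log2 ratios by -0.29 in CON vs CS, -0.33 in CON vs FS and -0.04 in CS vs FS. Each listed gene of the 30 kept its direction, and the thaumatin-like gene alone dropped under 2-fold, in CON vs FS. All genes behind these factors had been listed, so they lack the mostly unchanged genes that the scaling assumes. With them the chitinase Unigene74953_All in FS was level with CON, at a log2 ratio of 0.04 in place of 0.37. Of 62 ratios, 4 left their counting interval under TMM. On the most abundant listed sense tag 5 of 36 did. No paired analysis was possible because each condition had 1 library. Genes with few tags are limited by depth.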
